A study of Mus musculus with 10 samples.

Results

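Brain NKT cells were the cells that the deposited annotation of all CD45+ brain cells named NKT. They were taken from the 10 libraries that carry a sample label, and none of them was listed among the microglia. There were 204 such cells among 45472 cells, of which 40547 were microglia and 4925 were other cells. The same annotation named 1598 T cells and 548 NK cells, with which the NKT cells were compared.

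NKT cells are T cells: they carry a T cell receptor and the CD3 chains that signal for it, together with receptors better known from natural killer (NK) cells. Invariant NKT cells, the best known kind, recognise lipids on the CD1d molecule through a nearly fixed receptor, depend on the transcription factor PLZF (encoded by Zbtb16) and release interleukin 4 and interferon gamma within hours of activation. T cells without an invariant receptor can also gain NK receptors, for example after repeated stimulation. NK cells have no T cell receptor and are known by the activating receptor NKp46 (Ncr1), and in C57BL/6 mice by NK1.1 (Klrb1c).

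Single-cell RNA sequencing counted transcripts by unique molecular identifiers (UMIs) in CD45+ cells sorted from the whole brains of mice on a C57BL/6 background. The groups were littermates that were wild-type (WT), lacked Nlrp3 in the whole body (Nlrp3-/-, written Nlrp3KO), carried the APP/PS1 transgenes for mutant amyloid precursor protein and mutant presenilin-1, which are expressed in neurons of the central nervous system, or carried both changes (Nlrp3KO APP/PS1). WT and Nlrp3KO mice were profiled at 3, 6 and 9 months and both APP/PS1 groups at 3 and 9 months, each group and age as 1 library of pooled mice. The brain cells of every group were prepared with actinomycin D, an inhibitor of transcription. A pool of mice gives 1 value, so p-values measure the spread between libraries, and each deposited batch number held the libraries of 1 age, so batch and age cannot be told apart.

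The libraries held 2223 to 9112 cells. In microglia, Nlrp3 had 4160 UMIs in the libraries of mice with the gene and 0 in the Nlrp3KO libraries. The non-microglial cells of the Nlrp3KO libraries held 0 Nlrp3 UMIs as well. NKT cells were present in 8 of 10 libraries, with summed depths of 18940 to 550193 UMIs per library, and 4 libraries held at least 10 of them: Nlrp3KO APP/PS1 at 3 months (21 cells) and Nlrp3KO (12), APP/PS1 (91) and Nlrp3KO APP/PS1 (56) at 9 months. Of 45225 distinct barcodes 246 occurred in more than 1 library. Among NKT cells 3 had a barcode that was also found in another library, and 0 barcodes were shared by 2 NKT cells.

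The name was first checked against Cd3e, Klrb1c and Nkg7. NKT cells held the T cell marker Cd3e, which encodes a CD3 chain (chromosome 9, 44998740 to 45009627, minus strand, GRCm38/mm10), and the granule protein gene Nkg7 (chromosome 7, 43437073 to 43438249, plus strand), but Klrb1c (chromosome 6, 128778485 to 128789215, minus strand) was found in few of them. A Cd3e UMI was found in 196 of 204 cells (96.1%, exact 95% interval 92.4 to 98.3%) and an Nkg7 UMI in 202 cells (99.0%). Cd3e was found in 97.4% of T cells and 14.8% of NK cells. Nkg7 was found in 84.2% of T cells and 98.9% of NK cells, so it does not set NKT cells apart from either. A Klrb1c UMI was found in 33 cells (16.2%, 11.4 to 22.0%), against 2.57% of T cells, 85.6% of NK cells and, as a background from cells that should lack it, 1.13% of 533 B cells. Median depths were 5705 UMIs per NKT cell, 5810 per T cell, 5989 per NK cell and 4671 per B cell. With every cell thinned to 1500 UMIs, a Klrb1c UMI remained in 3.43% of NKT cells, 0.751% of T cells, 48.5% of NK cells and 0.375% of B cells. These intervals, and those that follow, cover counting error only. Cd3e and Nkg7 were thus found in nearly all of the cells, while 171 of the 204 had no UMI of the NK1.1 gene.

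Summed over all cells of a type, Cd3e stood at 742.5 CPM (UMIs scaled to the same total in every cell type or library) in NKT cells, 729.8 in T cells and 125.7 in NK cells. In the 4 libraries with at least 10 NKT cells it stood at 522.9, 659.3, 796.1 and 806.8 CPM, within the 512.6 to 870.1 CPM of T cells over 10 libraries. Klrb1c stood at 80.4, 98.9, 32.7 and 38.6 CPM in the same libraries, in the order given above. T cells ranged from 0 to 26.5 CPM of Klrb1c and NK cells from 383.4 to 606.3 CPM, so the NKT cells of these libraries lay above every T cell value and below every NK cell value. With fewer NKT cells, WT at 3 months (22.3 CPM, 1 UMI) and at 9 months (0 UMIs) lay within the T cell range. Because the label was made from the expression of these same genes, differences of gene levels between the cell types are descriptions and carry no p-value.

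NKT cells were rare among CD45+ cells outside the 9-month APP/PS1 brains. At 3 months they were 0.0926% of all cells in WT (7 cells), 0.144% in Nlrp3KO (9), 0.0892% in APP/PS1 (3) and 0.230% in Nlrp3KO APP/PS1 mice (21). At 9 months they were 0.193% in WT (5 cells, exact 95% interval 0.0627 to 0.450%) and 0.412% in Nlrp3KO mice (12, 0.213 to 0.718%). In the 9-month APP/PS1 library they were 3.00% (91 cells, 2.42 to 3.67%), and in the 9-month Nlrp3KO APP/PS1 library 2.52% (56 cells, 1.91 to 3.26%). The counting intervals of the last pair did not overlap those of any other library, and they gave 44.6 and 27.5% of all NKT cells.

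**Figure D1:**
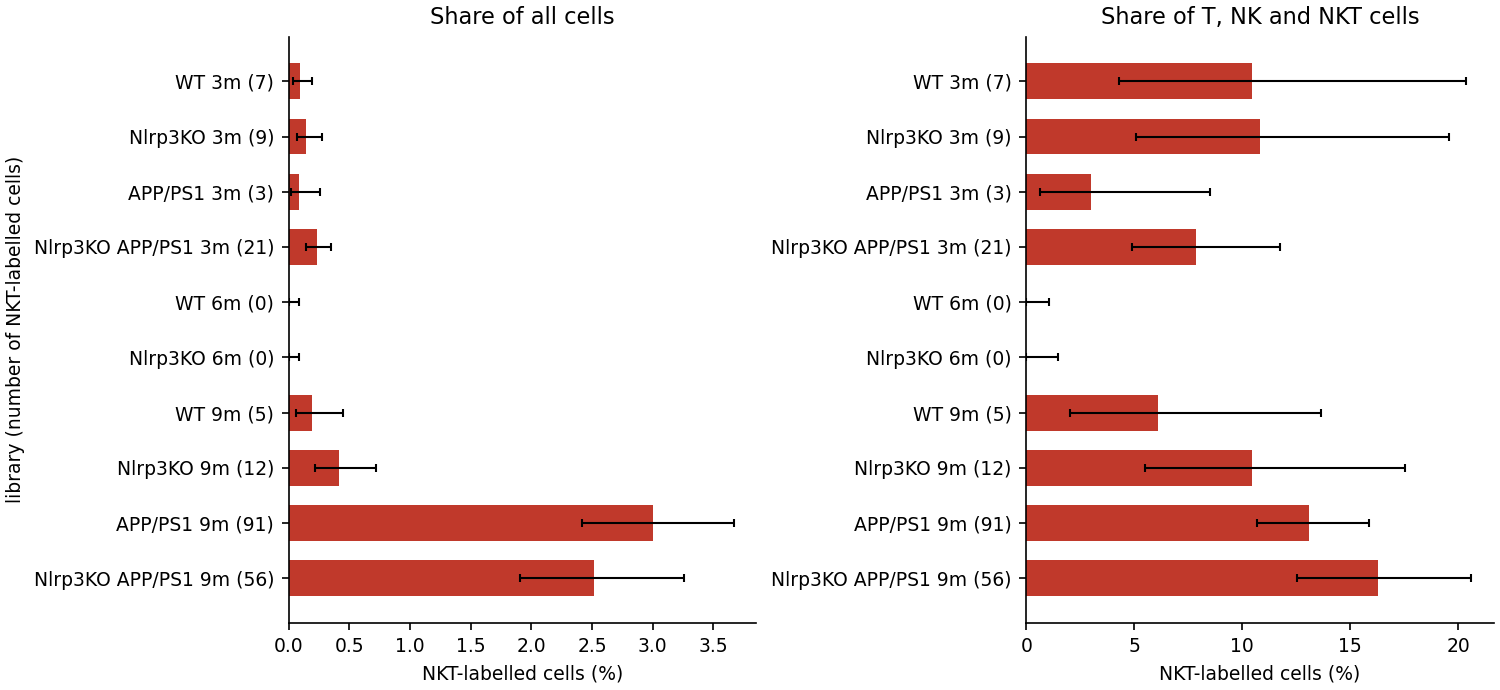
NKT cells as a percentage of all CD45+ cells (left) and of T, NK and NKT cells (right) in each of the 10 libraries. Bars give the share and error bars its exact 95% binomial interval, which covers counting error only. On the left the 9-month APP/PS1 and Nlrp3KO APP/PS1 libraries reach 3.00 and 2.52%, and both 6-month libraries stand at 0.

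Whether amyloid pathology went with more NKT cells was asked in pairs of the same age and Nlrp3 genotype. The share was higher in APP/PS1 mice in 3 of 4 pairs, by a mean of 1.25 percentage points (SD 1.42, n = 4 pairs; exact permutation test that flips the signs of the pair differences, two-sided, p = 0.25; the least that 4 pairs allow is 0.125). At 3 months the pairs differed by -0.00336 points in Nlrp3WT and 0.0863 points in Nlrp3KO mice, and at 9 months by 2.81 and 2.11 points. Without the 9-month Nlrp3WT pair the mean was 0.730 points. The mean effect was thus 0.0414 points at 3 months and 2.46 points at 9 months. The difference of 2.41 points between the ages had an exact permutation p of 0.333, the smallest that 2 pairs against 2 can give.

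T cells were also more frequent in these pairs, and as a share of lymphocytes NKT cells were higher in APP/PS1 mice at 9 months and lower at 3 months. T cells were higher in 4 of 4 APP/PS1 pairs, by a mean of 6.43 points (SD 6.63; exact permutation p = 0.125, the smallest possible), and NK cells in 3 of 4, by 1.05 points (SD 1.17; exact permutation p = 0.25). As a share of T, NK and NKT cells together, NKT cells were 10.4, 10.8, 3.00 and 7.84% at 3 months in WT, Nlrp3KO, APP/PS1 and Nlrp3KO APP/PS1 mice. At 9 months they were 6.10, 10.4, 13.1 and 16.3% in the same order. On this measure the APP/PS1 libraries were higher in 2 of 4 pairs, by a mean of 0.601 points (SD 6.99; exact permutation p = 1). A share of sorted cells cannot tell more cells of a type from fewer of the others.

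As a share of all cells, the difference with loss of Nlrp3 was smaller than the spread between pairs. The NKT share of all cells differed by -0.0135 points between Nlrp3KO and Nlrp3WT mice (SD 0.273, n = 5 pairs of the same age and background; higher in 3, lower in 1 and 0 in both 6-month libraries; exact permutation p = 1). The pairs differed by 0.0516 and 0.141 points at 3 months and by 0.219 and -0.479 points at 9 months, in mice without and with APP/PS1. As a share of T, NK and NKT cells the Nlrp3KO libraries were higher in 4 of 5 pairs and equal at 0 in the 6-month pair, by a mean of 2.55 points (SD 2.23; exact permutation p = 0.125, the smallest possible with 1 pair at 0). As a share of non-microglial cells they were higher in 4 and lower in 0, by a mean of 1.43 points (SD 1.16; exact permutation p = 0.125). Both of these means exceeded the SD between pairs, and with 1 pair at 0 the test could not go below this p. The direction of the mean therefore depended on the denominator. Without the 9-month APP/PS1 pair the mean difference as a share of all cells was 0.103 points.

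No cell of the 6-month libraries carried the NKT name, although these libraries held 455 T cells and 142 NK cells. A count of 0 among 4217 and 4216 cells allows a share of up to 0.0711% in WT and 0.0712% in Nlrp3KO mice when set at 3 counts of the total, as for every count of 0 here. The exact 95% intervals reached 0.0874 and 0.0875%. In the deposited 2-dimensional embedding, however, 36 of the 455 T cells of 6 months (7.91%) had NKT cells for at least 8 of their 15 nearest neighbours of 3 and 9 months. This neighbour rule found 36 of 40 NKT cells of 3 months (90%) and 149 of 164 of 9 months (90.9%), and of the 201 cells of 3 and 9 months that it picked 92.0% were named NKT. It took 3.26% of 215 T cells of 3 months and 0.539% of 928 T cells of 9 months. Of NK cells it took 1.14, 0 and 0.699% at 3, 6 and 9 months. The 36 cells were 22 of the WT and 14 of the Nlrp3KO library, or 0.522 and 0.332% of all cells. Counted by the same rule, such cells were 8.88% of lymphocytes at 3 months, 6.03% at 6 months and 12.6% at 9 months. The values of 3 and 9 months pool APP/PS1 and non-diseased libraries, while 6 months had WT and Nlrp3KO only. In WT and Nlrp3KO mice such cells were 0.106 and 0.128% of all cells at 3 months and 0.154 and 0.412% at 9 months. In APP/PS1 and Nlrp3KO APP/PS1 mice they were 0.178 and 0.263% at 3 months and 2.90 and 2.29% at 9 months.

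These 36 cells and the remaining 6-month T cells differed in the genes that separated NKT cells from T cells at the other ages. Satb1 was found in 72.2% against 15.5% of the remaining ones, Klrb1c in 30.6% against 3.58%, Il4 in 19.4% against 1.19% and Zbtb16 in 25% against 3.82%. Cd3e was found in 97.2% against 97.9%. The embedding was built from expression, so these values describe the 36 cells and do not test their identity. Counts at 6 months therefore depend on whether the name or the place in the embedding defines the cells.

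**Figure D2:**
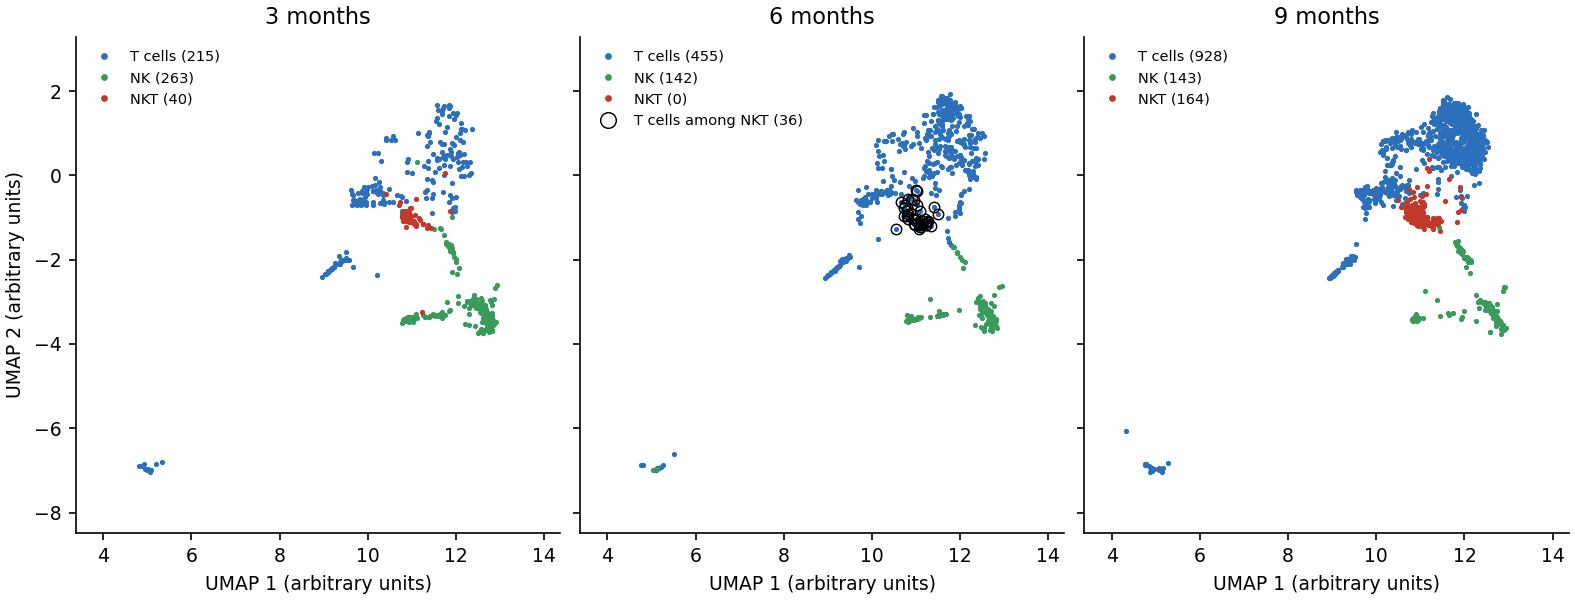
The deposited 2-dimensional embedding (UMAP, arbitrary units) of lymphocytes at 3, 6 and 9 months, with T, NK and NKT cells in separate colours. Black circles mark the 36 6-month cells named T cells that lie among the NKT cells of the other ages.

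T and NK genes were seen in the same NKT cells. After thinning to 1500 UMIs, which every lymphocyte reached, a UMI of a CD3 gene (Cd3e, Cd3d or Cd3g) was found in 97.1% of NKT cells and a UMI of an NK receptor gene (Klrb1c, Ncr1, Klrd1 or Klre1) in 39.2%. Both were found in 78 of 204 cells (38.2%, exact 95% interval 31.5 to 45.3%), against 18.8% of T cells, 27.2% of NK cells and 0 of 533 B cells, which allows a share of up to 0.563%. By library, both were found in 38.1, 25, 36.3 and 39.3% of NKT cells of the 4 libraries with at least 10 of them. Without thinning both were found in 125 of 204 NKT cells (61.3%), 37.3% of T cells and 35.9% of NK cells.

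Within NKT cells, the share with both groups of genes exceeded the product of the separate shares by a mean of 0.838 percentage points (SD 1.86, range -0.278 to 3.63, n = 4 libraries), was higher in 1 library and equal in 2 (exact permutation p = 1 by the same sign flips). With 2 libraries at 0 the smallest p possible was 0.5. Without the 3-month Nlrp3KO APP/PS1 library the mean was -0.0926 points. Since nearly every NKT cell held a CD3 gene, the share with both could not be below 36.3% whatever the arrangement, and nothing is read from this test. Per library, the share with both was higher in NKT than in T cells in 4 of 4 libraries, by a mean of 19.1 points (SD 4.93, range 13.2 to 24.9). It was higher than in NK cells in 1 of 4, by a mean of 2.33 points (SD 9.14). With Cd3e and Klrb1c alone the difference from T cells was 2.01 points (SD 2.40).

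**Figure D3:**
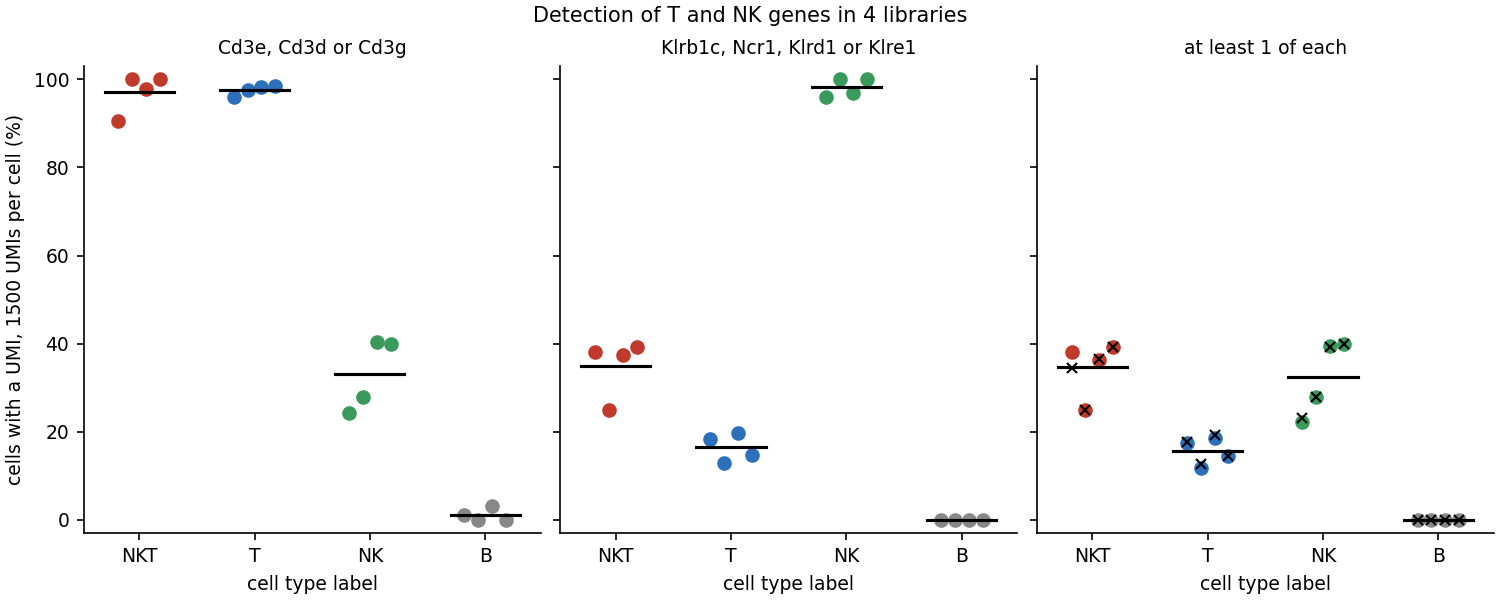
Percentage of NKT, T, NK and B cells with a UMI of a CD3 gene (left), of an NK receptor gene (middle) and of both (right), each cell thinned to 1500 UMIs. Dots are the 4 libraries with at least 10 NKT cells, black lines their means, and crosses on the right the product of the separate shares. On the right the NKT dots lie between 25 and 39.3% and close to their crosses.

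The deposited metadata gave each cell a doublet score, whose caller and scale are not given in the sources used here, so 0.5 serves below only as a point of comparison. The highest score in NKT cells was 0.472, and 0 of 204 cells exceeded 0.5, which allows a share of up to 1.47%. Above 0.5 were 4 of 215 T cells (1.86%) and 41 of 263 NK cells (15.6%) at 3 months, and 29 of 928 T cells (3.12%) and 9 of 143 NK cells (6.29%) at 9 months. The 6-month libraries, which had no NKT cells, held 62 of the 95 T cells and 7 of the 57 NK cells above it. The median was 0.0197 in NKT, 0.00337 in T and 0.00215 in NK cells, but scores varied among libraries. At 9 months the median of T cells was 0.0653 in APP/PS1 and 0.00145 to 0.00585 in the other three libraries, and in the 4 libraries with at least 10 NKT cells that of NKT cells was 0.00195, 0.00129, 0.0434 and 0.0197. Within libraries, the median of NKT cells differed from that of T cells by -0.00105 (SD 0.0162, higher in 2 of 4; exact permutation p = 0.875) and from that of NK cells by -0.0220 (SD 0.0536, higher in 1 of 4; exact permutation p = 0.625). The first difference was 0.00591 without the 9-month APP/PS1 library and the second 0.00455 without the 9-month Nlrp3KO APP/PS1 library.

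The 125 NKT cells with both kinds of gene had a median of 5784 UMIs and the 79 others 5457. The median doublet score was higher in the cells with both in 4 of 8 libraries, among them APP/PS1 at 9 months (0.0466 against 0.0412), and lower in 4, among them Nlrp3KO APP/PS1 at 9 months (0.0101 against 0.0298). UMI counts per NKT cell ran from 2638 to 9464, while T cells of 3 and 9 months reached 19848 and 24850. The median per library was near that of T cells (mean log2 ratio -0.09, SD 0.146; exact permutation p = 0.375) and lower than in NK cells in 4 of 4 libraries (mean log2 ratio -0.23, SD 0.163; exact permutation p = 0.125, the smallest possible).

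Of 9391 genes with at least 50 UMIs over NKT and T cells, 182 were over 2-fold higher in NKT cells (1.94%) and 655 over 2-fold lower (6.97%). Against NK cells 147 of 7596 genes were higher (1.94%) and 673 lower (8.86%). As a mean over libraries with at least 10 cells of both types the split against T cells turned, to 1611 higher and 73 lower, and against NK cells it was 116 and 358. These libraries held 60671 to 550193 NKT UMIs each, against 1.17e+06 in the sum. The part of low depth and of the prior count of 2 in this turn was not tested, and nothing is read from it. The minimum counted UMIs of both types, so a gene could pass it through the more numerous T or NK cells alone. The median log2 ratio of all these genes was 0.02 against T cells and -0.15 against NK cells. The fold changes below are log2 ratios of CPM from UMIs summed over all 10 libraries with a prior count of 2. NKT cells had 0 cells at 6 months, and the 6-month T cells held more microglial RNA, so each ratio was also computed from the libraries of 3 and 9 months. From these, 176 genes were over 2-fold higher and 397 lower against T cells, and 124 and 621 against NK cells. Without cells of doublet scores over 0.5, the counts were 203 and 404 against T cells and 138 and 422 against NK cells.

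The genes of the T cell receptor complex stood at T cell level. All 12 listed genes were measured and none differed by 2-fold from T cells (median log2 ratio -0.12), while 10 of 12 were over 2-fold higher than in NK cells (median 2.11). Trac, the constant region of the receptor's alpha chain, stood at 409.7 CPM in NKT cells, 455.1 in T cells and 66.7 in NK cells. Trbc2, a constant region of the beta chain, stood at 1500 CPM against 1384 in T cells and 489.7 in NK cells. Themis, which sets receptor signalling during selection, stood at 74.4 CPM against 1.13 in NK cells (log2 ratio 5.49), and the coreceptor Cd5 at 41.9 against 0.283 CPM, a single NK cell UMI.

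In most of the cells no UMI of a coreceptor was found. No UMI of Cd4, Cd8a or Cd8b1 was found in 184 of 204 NKT cells (90.2%, exact 95% interval 85.3 to 93.9%), against 23.5% of T cells. Thinned to 1500 UMIs, the shares were 95.6 and 36.2%. Cd8a (chromosome 6, 71373427 to 71379173, plus strand) stood at 20.1, 65.9, 10.9 and 38.6 CPM in the NKT cells of the 4 libraries and at 374.8 to 571.2 CPM in T cells, so the ranges did not overlap (log2 ratio over all libraries -4.24). Cd8b1 was the lowest gene of all against T cells (log2 ratio -6.15). All 7 listed CD8 T cell genes were over 2-fold lower (median -3.87), among them the granzyme Gzmk (-3.91), the inhibitory receptor Pdcd1 (-2.46) and the transcription factor Eomes, which had 3 UMIs in NKT cells (2.57 against 62.3 CPM). Of the 7 CD4 and regulatory T cell genes 4 were lower and Cd40lg, the ligand by which helper T cells activate their partners, was higher (100 against 35.7 CPM, log2 ratio 1.51). The median of this list was -1.76, or -1.12 with the gene that had no NKT UMI set at its bound.

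Of 13 listed genes of gamma-delta T cells 11 passed the minimum, 6 of them over 2-fold lower than in T cells and 1 higher. Of the 6 lower genes 4 had no NKT UMI and passed through T cells alone, so the count is no measure of the list. Its genes summed to 683 CPM in NKT and 968 in T cells, and in the 9-month APP/PS1 library to 619.8 and 470.9 CPM. The scavenger receptor Cd163l1, the kinase Blk, Trdv4 and the cytokine Il17a had 0 UMIs in NKT cells, which put T cells at least 23.8-fold, 13.5-fold, 14.1-fold and 20.8-fold higher against a floor of 3 counts over the NKT cells. Trdc, the delta constant region (chromosome 14, 54142851 to 54148868, plus strand), was found in 15 NKT cells (7.35%), against 8.51% of T cells and 16.2% of NK cells. Trac and Trdc were found together in 1 NKT cell, where the product of their shares would give 12.2 cells. The 15 cells with Trdc and the 166 with Trac thus shared 1 cell. Both genes were found together in 46 T cells, against a product of 114.8, and in 4 NK cells, against 10.2. The NKT cells with Trdc came from 3 libraries: 3 from Nlrp3KO APP/PS1 at 3 months, 8 from APP/PS1 and 4 from Nlrp3KO APP/PS1 at 9 months. These libraries gave 10.3, 44.6 and 27.5% of all NKT cells. Tcrg-C4, a gamma constant region that is also transcribed in alpha-beta T cells, was the listed gene that was higher (158 against 73.8 CPM).

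Of 25 listed NK receptor genes 17 were measured against T cells: 9 were over 2-fold higher, 7 within 2-fold and 1 lower (median log2 ratio 1.21). Against NK cells 20 of 23 measured genes were lower and 0 higher (median -2.54). Among these 23 genes 3 had no NKT UMI and passed the minimum through NK cells alone. The list summed to 1894 CPM in NKT and 7810 in NK cells. Klrk1, which encodes the activating receptor NKG2D (chromosome 6, 129610323 to 129623864, minus strand), stood at 693.8, 280.2, 476.2 and 324.6 CPM in the NKT cells of the 4 libraries. T cells ranged from 89.1 to 250.3 and NK cells from 864.9 to 1281, so in these libraries NKT cells lay between the other two types. In 2 libraries with fewer NKT cells Klrk1 stood within the NK cell range, at 1097.5 CPM in WT at 9 months (39 UMIs in 5 cells) and 1267.2 CPM in APP/PS1 at 3 months (24 UMIs in 3 cells). It was found in 62.3% of NKT, 28.5% of T, 97.6% of NK and 0.375% of B cells, and after thinning in 40.7, 15, 78.1 and 0%.

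Klrd1 (CD94, the shared partner of NKG2A and NKG2C; chromosome 6, 129591782 to 129598775, plus strand) stood at 260 CPM in NKT cells, 158.6 in T cells and 1123 in NK cells. Its NKG2 partners followed: Klrc1 stood at 143 CPM against 47.3 in T cells, and Klrc2 at 170 against 45.8. Klre1 stood at 163, 59.7 and 773 CPM in NKT, T and NK cells. Ncr1, by contrast, had 4 UMIs in 3 NKT cells (3.42 CPM), against 8.0 CPM in T cells and 693 CPM in NK cells.

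Ly49 receptors, the Klra family that reads class I molecules in mice, were found in a minority. Klra9 was found in 36 NKT cells, at 123 CPM against 19.3 in T cells and 628 in NK cells. Klra1 (chromosome 6, 130363917 to 130386874, minus strand) was found in 17 cells, with 5.59 UMIs per cell that had any, against 6.91 in NK cells. Klra4, Klra8 and the related Klrb1a had 0 UMIs, so NK cells stood at least 82.6-fold, 77.0-fold and 55.3-fold higher. Klra genes are close copies of each other, so reads may be divided among them and single members are uncertain.

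The 49 NKT cells with any listed Klra UMI also held the other NK receptors more often than the other 155. Klre1 was found in 75.5% of them against 15.5%, Klrk1 in 93.9 against 52.3%, Klrd1 in 81.6 against 43.2% and Klrb1c in 32.7 against 11.0%. The same held in T cells, where the 83 with a Klra UMI and the other 1515 held Klre1 in 67.5 and 6.93%, Klrk1 in 74.7 and 26.0%, Klrd1 in 84.3 and 32.9% and Klrb1c in 31.3 and 0.990%. Median depths of the 49 and the 155 NKT cells were 5878 and 5527 UMIs. Il4 was found in 8.16% of the 49 and in 21.9% of the 155, and Trdc in 0 and 15 cells. These are shares over cells pooled from 8 libraries and were not tested.

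The adaptors through which NK receptors signal were not at NK cell level. Of 15 measured NK signalling and lineage genes 10 were over 2-fold lower than in NK cells and 0 higher. Among these 15 genes 2 had no NKT UMI and passed the minimum through NK cells alone. The list summed to 3093 CPM in NKT and 8888 in NK cells. Tyrobp, which encodes DAP12, stood at 36.8 CPM in NKT, 155 in T and 2326 in NK cells, and Fcer1g at 115, 167 and 2835. Against T cells Tyrobp had a log2 ratio of -2.01, and -0.64 with the libraries of 3 and 9 months. Il2rb, the shared receptor chain for interleukins 2 and 15, stood at 449 CPM in NKT, 225 in T and 993 in NK cells, and the kinase gene Txk at 267, 89.8 and 413. T-bet (Tbx21) stood at 63.3 CPM and Eomes at 2.57, against 114 and 65.8 in NK cells.

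**Figure D4:**
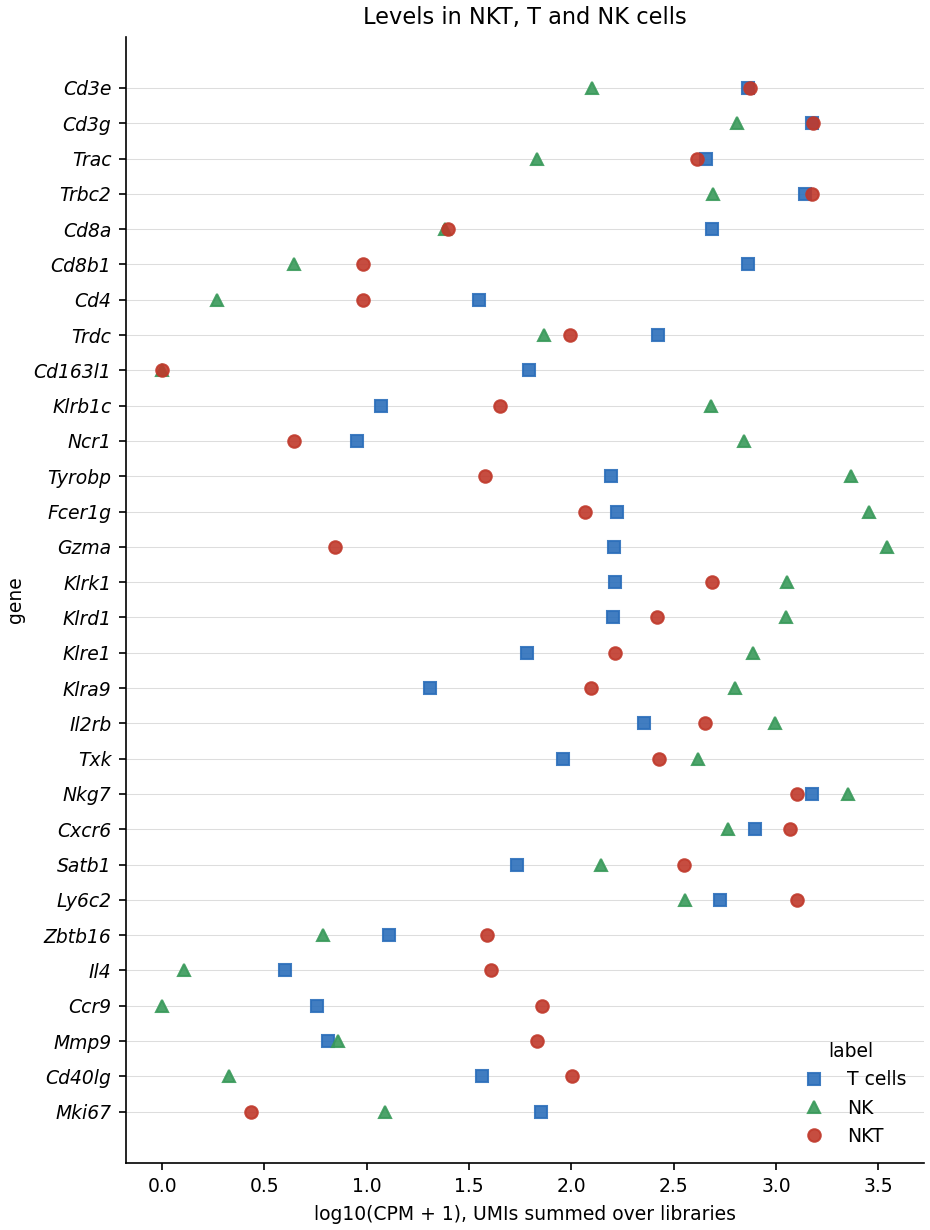
Level of named genes, as log10 of CPM + 1 from UMIs summed over all libraries, in NKT, T and NK cells. Receptor complex genes such as Cd3e (742.5 CPM in NKT and 729.8 in T cells) lie at T cell level, and NK receptors such as Klrk1 (488 CPM) lie between T cells (163) and NK cells (1133).

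Against T cells 4 of 12 listed cytotoxic genes, the granzymes Gzma, Gzmc, Gzmk and Gzmm, were over 2-fold lower and 0 higher (median -0.02). The list summed to more in NKT than in T cells in 2 of 4 libraries (2694.7 against 2268.0 and 2751.5 against 2130.6 CPM, both Nlrp3KO APP/PS1). Against NK cells 6 of 10 measured were lower. Gzma, the granzyme with the largest difference, had 7 UMIs in 5 NKT cells (5.99 CPM), against 161 CPM in T cells and 3509 in NK cells (log2 ratios -4.39 and -8.83). Gzmb stood at 178, 116 and 1455 CPM in NKT, T and NK cells, with 16.5 to 350.4 CPM over the 4 NKT libraries. Perforin (Prf1) stood at 47.9, 69.7 and 465 CPM. Fas ligand (Fasl), at 160, 91.9 and 125 CPM, was within 2-fold of both.

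Of 21 listed genes tied to invariant NKT cells 10 had no UMI in NKT cells. Of the 11 measured against T cells 2 were over 2-fold higher and 3 lower (median -0.11). Among these 11 genes 2 had no NKT UMI and passed the minimum through T cells alone, so the count is no measure of the list. It summed to 560.3 CPM in NKT and 573.3 in T cells. The 2 higher genes were Zbtb16 and Il4. Zbtb16 stood at 40.2, 49.4, 43.6 and 25.7 CPM in the 4 libraries, against 2.51 to 29.1 CPM in T cells, so the ranges overlapped (log2 ratio over all libraries 1.71), and was found in 38 cells (18.6%, 13.5 to 24.7%). Il4 stood at 10.1, 33.0, 43.6 and 48.2 CPM against 0 to 9.94 in T cells, so the ranges did not overlap, although the lowest NKT value was 1 UMI (log2 ratio 3.69), and was also found in 38 cells. It had 0 UMIs in the few NKT cells of APP/PS1 at 3 months and WT at 9 months. Both were found in 9 cells, where the product of shares gives 7.08. B cells held 0 UMIs of either. The listed variable and joining segments of the receptor were at or near 0 UMIs in every cell type, and which receptor the cells used was not tested.

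The highest genes against T cells were led by Ccr9, a chemokine receptor of gut-homing lymphocytes (71.0 against 4.72 CPM, log2 ratio 3.89), which had 0 UMIs in NK cells (at least 83.8-fold lower). Over the 4 libraries it stood at 0, 131.9, 78.2 and 51.4 CPM. Next were Il4, the matrix protease Mmp9 (66.7 against 5.49 CPM, 3.59), Ly6c1 (3.24), Ifitm2 (3.13), Styk1 (3.02), the water and glycerol channel Aqp9 (2.96) and B3galt2 (2.88). Mmp9 was higher than in T cells in 4 of 4 libraries, at 140.8, 230.8, 43.6 and 45.0 CPM.

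Satb1, a chromatin organiser of thymocytes and naive T cells (chromosome 17, 51736187 to 51833290, minus strand), stood at 372.0, 313.2, 372.6 and 311.8 CPM in the NKT cells of the 4 libraries, above every T cell value (22.3 to 126.2) and every NK cell value (60.9 to 182.9; log2 ratios over all libraries 2.74 and 1.36). In the 7 NKT cells of WT at 3 months it stood at 133.7 CPM (6 UMIs), within the NK cell range. It was found in 74.0% of NKT, 17.7% of T, 48.7% of NK and 27.6% of B cells, and after thinning in 35.3, 6.2, 22.1 and 10.3%. Ly6c2, a surface antigen of memory T cells and monocytes (chromosome 15, 75108158 to 75111970, minus strand), stood at 2282, 906.5, 1069 and 1289 CPM, above the 347.8 to 691.0 of T cells and the 295.0 to 639.5 of NK cells, but at 475.2 CPM (9 UMIs) in the 3 NKT cells of APP/PS1 at 3 months.

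Of 10 listed naive and recirculating lymphocyte genes Satb1 and Lef1 (106 against 44.3 CPM) were over 2-fold higher than in T cells and 7 were lower, of which 2 had no NKT UMI and passed the minimum through T cells alone. The list summed to 704.9 CPM in NKT and 746.7 in T cells, and at 9 months to 637.1 and 592.6. Il7r stood at 120 against 304 CPM, Tcf7 at 38.5 against 97.3 and Klf2 at 18 against 108, while Ccr7 had 0 UMIs. Of 12 tissue residence genes 3 were over 2-fold higher: the aryl hydrocarbon receptor Ahr (log2 ratio 1.92), Zfp683 (Hobit, 1.49) and the receptor for extracellular ATP P2rx7 (98.4 against 43.3 CPM, 1.20). The integrin Itgae, which binds epithelium, was the 1 lower gene, with 3 UMIs in NKT cells (2.57 against 27.6 CPM). The chemokine receptor Cxcr6 stood at 1165 to 1450 CPM in the 4 libraries, above the 603.3 to 1001 of T cells, but within that range in the few NKT cells of WT (868.8 CPM) and APP/PS1 mice (950.4 CPM) at 3 months.

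Of 10 cell division genes 7 were over 2-fold lower than in T cells and 0 higher (median -3.67, or -3.51 with 3 genes at their bounds that had no NKT UMI and passed the minimum through T cells alone). Mki67 had 2 UMIs in NKT cells and stood at 69.9 CPM in T cells, and Top2a had a log2 ratio of -4.11. Among cytokines and chemokines Ccl5 stood at 1949 CPM against 5610 in T cells and 8296 in NK cells, Ccl4 at 16.3 against 85.8 and 791, and Ifng at 42.8 against 31.7 and 79.7. Of 12 measured, 4 were over 2-fold lower than in T cells and 1, Il4, higher. Among these 12 genes 1 had no NKT UMI and passed the minimum through T cells alone. The list summed to 3685 CPM in NKT and 7269 in T cells. In Nlrp3KO APP/PS1 at 3 months its sum was higher in NKT cells (5419.7 against 4774.8 CPM), and in the other libraries with at least 10 NKT cells it was lower.

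Of 8 listed inflammasome genes 4 had no NKT UMI, and of the 4 measured against T cells 2 were over 2-fold lower and 2 within 2-fold. Nlrp3 had 0 UMIs in NKT cells of every genotype, 22 in T cells and 4 in NK cells. The summed depths were 1.17e+06, 1.04e+07 and 3.54e+06 UMIs, and the median library stood at 0 CPM of Nlrp3 in each type. These counts therefore do not set the types apart. Casp1, the protease that the inflammasome activates, stood at 14.5 CPM in NKT, 70.8 in T and 64.7 in NK cells (log2 ratio against T cells -2.13), and in the 4 libraries at 0, 16.5, 12.7 and 25.7 CPM, below the 47.4 to 93.6 of T cells. In the 3 NKT cells of APP/PS1 at 3 months it stood at 52.8 CPM, from 1 UMI. The adaptor Pycard stood at 115, 163 and 331 CPM.

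RNA of other cell types moved with some of these differences. The 10 microglia markers summed to 2648 CPM in NKT cells of 3 months and 277.8 CPM at 9 months, and to 3068, 11928 and 921.4 CPM in T cells of 3, 6 and 9 months, with none of the 10 at 0. All 10 were over 2-fold lower than in T cells over all libraries and 8 of 10 with the libraries of 3 and 9 months. Against NK cells all 10 were over 2-fold lower as well, at a sum of 706.6 against 8218 CPM. The 7 dendritic cell markers summed to 33.1 and 7.31 CPM in NKT cells of 3 and 9 months and to 66.8, 926.9 and 44.8 CPM in T cells of 3, 6 and 9 months. Of these markers 4 passed the minimum and were lower than in T cells over all libraries, and 2 with the libraries of 3 and 9 months. B cell markers summed to 140.3 CPM with 4 of 6 at 0, and neutrophil and monocyte markers to 1418 CPM, of which Ly6c2 gave 1267, with 3 of 6 at 0. Of the 5 erythrocyte and platelet markers 1 passed the minimum, at a sum of 5.99 CPM. Of 7 markers of innate lymphoid cells type 2, 5 were at 0, and Gata3, which T cells also use, stood at 144 against 67.7 CPM. The part of this RNA in the differences was not tested.

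Within NKT cells, calls for APP/PS1 against non-diseased mice depended on the filter. Counts summed over the NKT cells of each of 8 libraries were tested with the pair as a block in edgeR, and 0 of 876 genes (0%) passed both an adjusted p below 0.05 and a 2-fold change. There were 34 genes at an unadjusted p under 0.05, and DESeq2 called 0 as well, with 8 at an unadjusted p under 0.05. With a filter of at least 1 UMI, edgeR called 4 of 10978 genes: Ifitm3, Trdc and Gzmb higher and Odc1 lower in APP/PS1. A Trdc UMI was found in 15 NKT cells in all. The 8 libraries held 3 to 91 NKT cells each, and those of non-diseased mice among them 5 to 12.

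For Nlrp3KO against Nlrp3WT, 2 of 876 genes were called (0.228%), both higher in Nlrp3KO. S100a4, a calcium-binding protein gene of motile and effector cells, rose by 1.56 on the log2 scale (edgeR adjusted p = 0.0123). An approximate SE of 0.271 was derived from this change and the F statistic of edgeR, which gives no SE itself. In Nlrp3WT libraries it stood at 89.1 and 105.6 CPM at 3 months and 168.9 and 216.3 at 9 months, and in Nlrp3KO libraries at 559.9 and 573.1 and at 362.6 and 527.1. It was higher in 4 of 4 pairs and the groups did not overlap, although 3 of the 4 Nlrp3WT values rest on 2 to 6 UMIs. In T cells S100a4 ran from 784.2 to 1599 CPM over the 10 libraries and was higher in Nlrp3KO in 2 of 5 pairs. DESeq2 called 0 genes here, with 37 at an unadjusted p under 0.05. Likewise edgeR called 0 genes without the 9-month APP/PS1 pair or without the 9-month pair of non-diseased mice, and it called 1 without the 3-month APP/PS1 pair.

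**Figure D5:**
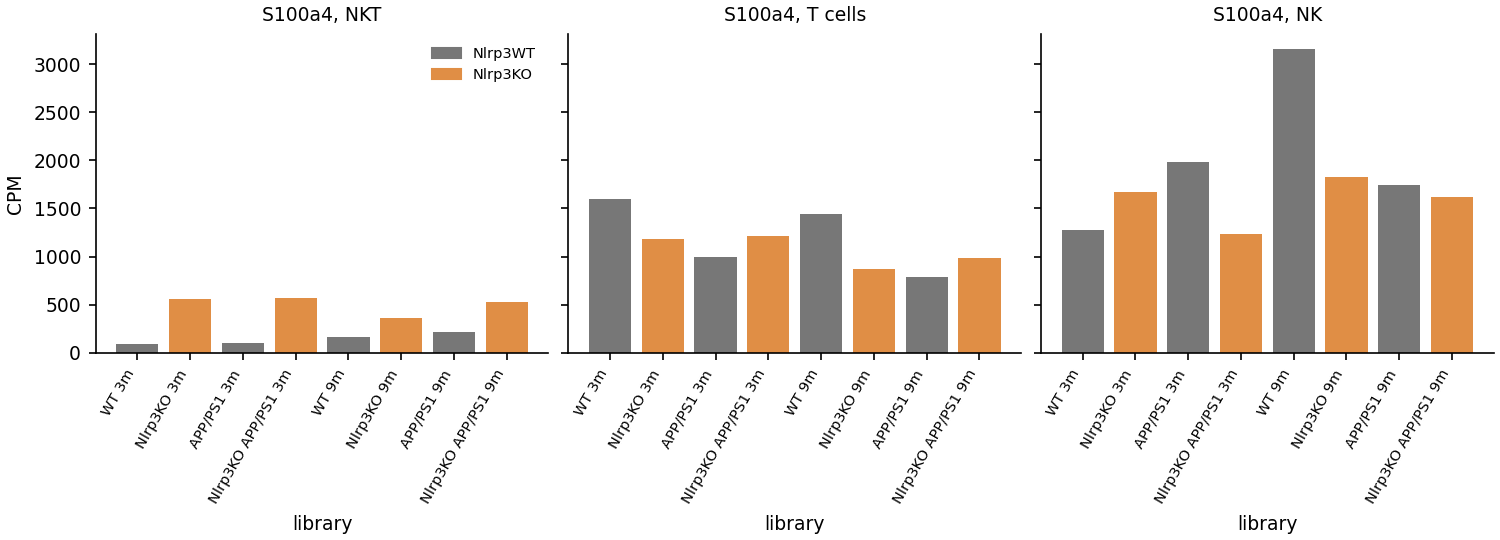
S100a4 in NKT, T and NK cells of each of the 8 libraries with NKT cells, in CPM of summed UMIs, 1 bar per library coloured by Nlrp3 genotype. S100a4 is higher in the NKT cells of all 4 Nlrp3KO libraries (362.6 to 573.1 CPM) than of the 4 Nlrp3WT libraries (89.1 to 216.3).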

How the data were processed

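CD45+ brain cells of 10 libraries were measured by 10x Genomics 3' single-cell RNA sequencing. The authors deposited raw UMI counts of 31053 genes in 52369 cells, with Cell Ranger and the mm10 genome named in the submitters' processing notes. Metadata deposited beside them gave each cell a sample name, batch number and cell type, the percent of mitochondrial UMIs, the fraction of ribosomal protein UMIs, a doublet score and embedding coordinates. The caller behind the doublet score and its scale are not given in the sources used here, and no cell was removed by it. Cells of 2 sample names that match no sample label (6897 cells) were not used.

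Counts were summed per library and cell type. Members, gene lists and tests were chosen with earlier results of these data known. The named genes were those of the lists (199, of which 1 was not matched), the 15 highest and 15 lowest against each cell type, the genes called by edgeR in the same direction in every pair, and Nlrp3. Levels are CPM with a minimum of 50 UMIs over both types. The sum of counts leaves the largest libraries the most weight. Gene coordinates come from the GENCODE annotation of GRCm38. Shares and medians were compared over libraries by exact sign-flip permutation tests, two-sided, paired by age and background or within a library of at least 10 cells of both types. Gene tests used the quasi-likelihood test of edgeR 4.0.16 (TMM, filterByExpr, Benjamini-Hochberg) in R 4.3.3, with DESeq2 1.42.0 as an alternative. They were planned for libraries with at least 10 NKT cells. That left fewer than 2 pairs, so all 8 libraries with NKT cells were used, a choice made after seeing the cell counts. On simulated counts with 200 of 876 genes changed 4-fold, 85.5% were recovered with 2 false calls for APP/PS1 and 92.5% with 3 false calls for Nlrp3KO. The simulation gave every gene the same dispersion (0.0247 and 0.0227) and no difference between pairs. It changed only genes that had passed the filter, so these shares do not measure the power of the tests on the real counts. Python 3.11.15, scipy 1.17.1 and scikit-learn 1.9.0 were used. Alternatives changed the denominator, thinning, marker pair, prior count, minimum, libraries and test. Of the 2 genes called for Nlrp3KO, 1 is not reported here.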

Additional observations from a re-analysis of the deposited data

How the results depend on the processing

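Of 108 alternatives, 80 counted as unchanged, 17 moved a value and 11 reversed a direction. The cause was not tested. For results with a permutation test, unchanged meant only that the sign agreed, whatever the size. The APP/PS1 difference of 1.25 points (SD 1.42) thus counted as unchanged at 3.35 points as a share of non-microglial cells. For co-detection differences from T and NK cells it meant within the spread between libraries, and for gene counts within 1.5 times. Of the 80, 2 changed sign within the spread, both for co-detection against NK cells. The Nlrp3KO difference in the NKT share (-0.0135 points) became 1.43 as a share of non-microglial cells, 2.55 as a share of T, NK and NKT cells, 0.356 as log odds and 1.51 for cells embedded among NKT cells as a share of lymphocytes, the last an alternative chosen after seeing the data. Leaving out a pair gave -0.0716 to 0.103, and 0.730 to 1.67 for APP/PS1. Observed co-detection minus its product was -0.244 for Cd3e with Klrb1c, and -0.0926 to 1.21 with a library left out. The co-detection difference from T cells was 30.6 points without thinning, 32.8 at 3000 UMIs, 2.01 for Cd3e with Klrb1c and 17.2 to 21.1 with a library left out. That from NK cells was 23.6, 22.9 at 3000 UMIs, -4.15 for Cd3e with Klrb1c and -2.21 to 4.15 with a library left out. With a library left out, doublet score differences ran from -0.00724 to 0.00591 against T cells and from -0.0341 to 0.00455 against NK cells. The latter was 0.00693 with at least 20 cells. With mean scores in place of medians the differences were -0.0256 against T cells and -0.0798 against NK cells. The percent of cells with a score over 0.5 differed by -2.93 and -6.13 points. Genes per cell gave a log2 ratio to T cells of 0.000823. UMI ratios with a library left out were -0.13 to -0.02 and -0.29 to -0.16.

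Genes past 2-fold against T cells numbered 837. They were 278 (51 higher, 227 lower) at 200 UMIs, 1684 (1611 higher, 73 lower) as a mean of libraries, and 458 (161 and 297) in the 9-month APP/PS1 libraries, chosen after seeing the data. Against NK cells 820 became 292 (42 and 250), 474 (116 and 358) and 293 (78 and 215). With at least 1 UMI as the filter, 4 of 10978 genes were called for APP/PS1 (Ifitm3, Trdc and Gzmb higher, Odc1 lower). For Nlrp3KO 4 of 10978 were called. DESeq2 called 0 for Nlrp3KO, and leaving out a pair gave 0 to 2. No additive test with at least 10 or 20 cells could be fitted, because no residual degrees of freedom were left. Replicate numbers gave no pairing, since each group had 1 library; the pairs are libraries of the same age and background. Of the 8 libraries with NKT cells, 4 held 3 to 9 NKT cells, and a gene with 0 NKT UMIs may lie at up to 2.57 CPM.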
